A study of Homo sapiens with 6 samples.

Results

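The untreated state of LNCaP cells was described from the 3 vehicle (DMSO) samples among the 6 RNA-seq samples of the series. LNCaP is an established androgen-sensitive human prostate cancer cell line, kept in RPMI-1640 with fetal bovine serum. The 3 samples are biological replicates exposed to DMSO for 4 h, and polyA+ RNA was read from them as stranded single-end sequences of 75 bp. The other 3 samples received 250 nM CDKI-73, a CDK9 inhibitor, and entered none of the values given here. CDKI-73 appears in the titles of these 3 samples too, and the treatment label, which gives DMSO, was taken to decide. The samples were chosen by that label alone, and no measured value entered the choice. As a model, LNCaP is 1 tumor line in serum-fed culture, without stroma, blood vessels or immune cells.

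The levels are CPM values, the reads of a gene scaled to the same total of counted reads in every sample. The 3 samples held 60.9, 54.5 and 52.9 M counted reads, inferred from the steps between the deposited values, so that 1 read was worth 0.0164 to 0.0189 CPM. A gene was called on when it reached 1 CPM in each of the 3 samples, which corresponds to 53 to 61 reads. By this rule 12337 of 29744 listed genes (41.5%) were on, among them 11256 of 18856 protein-coding genes (59.7%). A further 8908 genes (29.9%), with 3038 protein-coding genes (16.1%) among them, were listed at 0 in all 3 samples. A value of 0 allows up to 0.0492 to 0.0567 CPM, the worth of 3 reads, as counting error alone. CPM is a share of reads and grows with transcript length, so an order by CPM is one of reads, and levels of genes were compared as CPM per kb of the canonical GENCODE transcript. Where a list median moves by more than 1.5 times when the union of all exons is taken as length, that value stands beside it. Overlap between genes, or its absence, refers to the 3 sample values at the canonical length. It does not cover error in that length, so an order of single genes holds for these lengths only.

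In the normal prostate, luminal cells line the glands and secrete proteases such as prostate-specific antigen into seminal fluid, while basal cells lie beneath them. Much of the luminal program depends on androgen, the male sex hormone. FOXA1 opens chromatin in luminal cells, HOXB13 marks prostate identity, and kallikrein proteases and TMPRSS2 are among the best-known genes that androgen induces. Prostate cancers mostly keep this luminal, androgen-dependent state, and LNCaP is widely used as its model.

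The 3 samples carried the defining markers of luminal prostate cells. KLK3, which encodes prostate-specific antigen (chromosome 19, 50854915 to 50860764 in GRCh38), stood at 2787, 2518 and 2480 CPM in DMSO 1, 2 and 3. This made it the sixth entry of the table by reads and gave it 0.259% of all counted reads. TMPRSS2, a membrane serine protease (chromosome 21, 41464300 to 41531116), stood at 776, 753 and 767 CPM. FOXA1 stood at 411, 414 and 418 CPM, HOXB13 at 357, 346 and 350 CPM, and KLK2, a kallikrein next to KLK3 on chromosome 19, at 242, 209 and 205 CPM. KLK3 and KLK2 were both highest in DMSO 1, while FOXA1 hardly moved between samples. Per kb of transcript the order was KLK3 (1772 ± 114 CPM per kb, SD, n = 3), TMPRSS2 (222 ± 3.4), FOXA1 (118 ± 1.0), HOXB13 (115.5 ± 1.9) and KLK2 (77.2 ± 7.3). FOXA1 and HOXB13 overlapped over the 3 samples, and the other neighbours in this order did not.

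**Figure D1:**
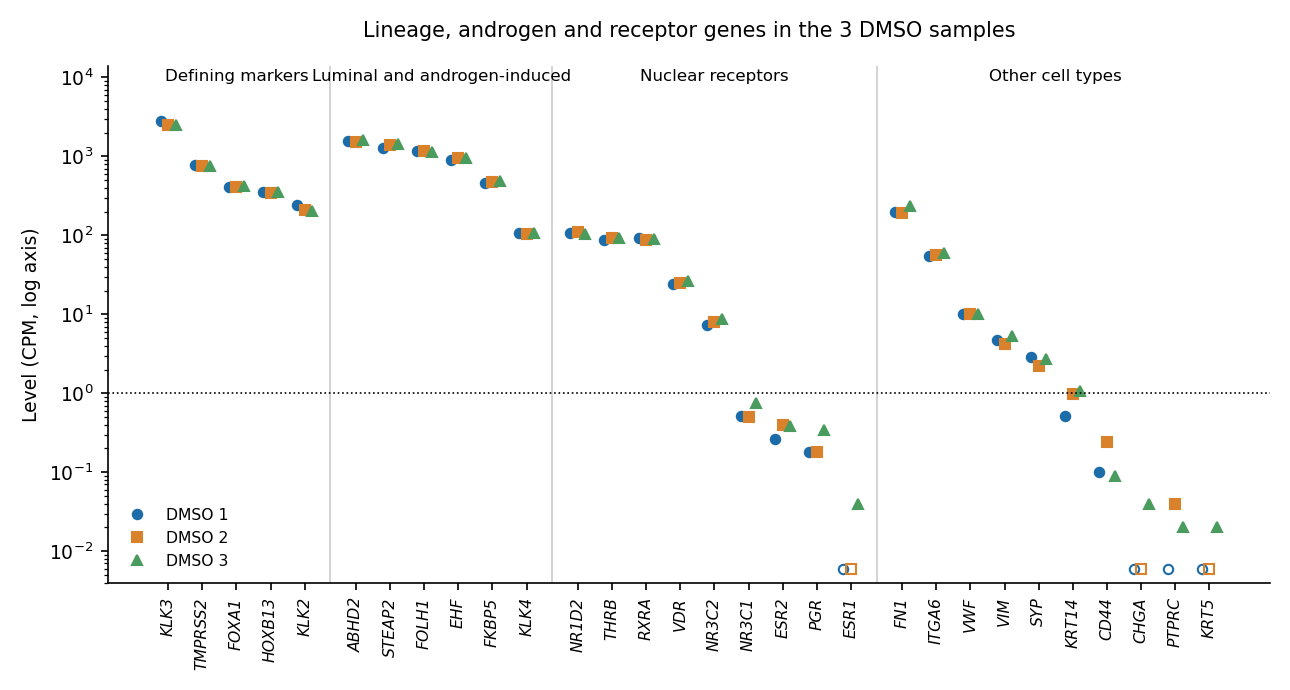
Levels of 30 genes in each of the 3 DMSO samples, in CPM on a log axis, with hollow symbols at the foot for samples listed at 0 and a dotted line at 1 CPM. The 5 defining markers lie between 205 and 2787 CPM, the steroid receptors shown lie below 10 CPM, and KRT5, CHGA and PTPRC lie below 0.1 CPM.

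The upstream sequence of KLK3 is shown because this gene led the lineage program, and those of EEF2 and CPA1 because they stand for both ends of the expression range. EEF2, a translation elongation factor, had the most reads of all listed protein-coding genes (4067 ± 69.6 CPM, SD, n = 3). CPA1, a pancreatic digestive enzyme, was listed at 0 in all 3 samples. Each run covers the 250 bases before the annotated start, 5′ to 3′ on the strand of the gene, from RefSeq on GRCh38.p14. Capitals mark AGAACA, a hexamer of the steroid receptor element, in KLK3, and every CG in EEF2 and CPA1. AGAACA also occurs in the stretch of CPA1, where it is not marked.
KLK3 (chr19:50854665-50854914, +): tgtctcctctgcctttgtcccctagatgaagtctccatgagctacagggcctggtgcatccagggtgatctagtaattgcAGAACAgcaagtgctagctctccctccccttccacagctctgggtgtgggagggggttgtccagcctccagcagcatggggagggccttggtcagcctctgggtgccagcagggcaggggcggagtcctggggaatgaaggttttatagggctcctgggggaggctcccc
EEF2 (chr19:3985464-3985713, -): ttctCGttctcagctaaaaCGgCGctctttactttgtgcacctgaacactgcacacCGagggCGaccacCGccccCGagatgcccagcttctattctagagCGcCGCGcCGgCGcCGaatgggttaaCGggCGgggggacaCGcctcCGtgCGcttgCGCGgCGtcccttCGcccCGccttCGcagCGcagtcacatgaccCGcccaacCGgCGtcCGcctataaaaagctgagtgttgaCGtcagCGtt
CPA1 (chr7:130380244-130380493, +): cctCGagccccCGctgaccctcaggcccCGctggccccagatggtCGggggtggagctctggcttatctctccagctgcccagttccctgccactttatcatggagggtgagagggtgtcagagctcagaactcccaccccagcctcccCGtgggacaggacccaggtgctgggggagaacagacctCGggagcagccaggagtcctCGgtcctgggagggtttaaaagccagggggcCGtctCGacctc

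The printed stretch of EEF2 held 31 CG pairs and that of CPA1 held 9. The window of KLK3, taken over 300 bases from 250 before to 50 after the start, held 2 CG pairs, with an observed over expected ratio of 0.0719. AGAACA, searched on both strands, lay in 11% of the 15093 promoter windows of protein-coding genes in 8.46% of those that were on, in 17.8% of those at 0 and in 4.82% of the 83 windows of androgen-induced genes.

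Other start sites are shown because a feature of their letters was more frequent at high levels. A run of pyrimidines that opens with C at the first transcribed base is the terminal oligopyrimidine (TOP) motif, known for mRNAs of the translation machinery. It was searched as C at the annotated start followed by 4 bases that are each C or T, on the strand of the gene only. Among the 30 protein-coding genes with the most reads and a RefSeq window, 10 had it, and in the windows below it is in capitals and begins after 8 upstream bases. The rest lacked it, among them the ribosomal protein genes RPL4, RPL15, RPL3 and RPL19. GAPDH, KLK3 and HSPA8 follow as abundant genes without it.
EEF2 (chr19:3985442-3985471, -): tcagcgttCTCTTCCgccgtcgtcgccgcc
EEF1A1 (chr6:73521011-73521040, -): tgaacgttCTTTTTCgcaacgggtttgccg
TPT1 (chr13:45341162-45341191, -): gagtcggcCTTTTCCgcccgctcccccctc
RPS24 (chr10:78033855-78033884, +): tcgtggttCTCTTTTCCTCCTTggctgtct
RPS6 (chr9:19380215-19380244, -): agttggccCTCTTTTCCgtggcgcctcgga
NPM1 (chr5:171387841-171387870, +): cctgcgtcCTTTCCCTggtgtgattccgtc
RPS18 (chr6:33272067-33272096, +): cttccgctCTCTCTTCCacaggaggcctac
RPL7A (chr9:133348210-133348239, +): tccctttcCTTTCTCTCTCCTCCCgccgcc
RPL37A (chr2:216498836-216498865, +): gtctcttcCTTTCTgggctcggacctaggt
RPL13A (chr19:49487600-49487629, +): acctcctcCTTTTCCaagcggctgccgaag
GAPDH (chr12:6535256-6535285, +): gcatccctgtccggatgctgcgcctgcggt
KLK3 (chr19:50854907-50854936, +): ggctccccagccccaagcttaccacctgca
HSPA8 (chr11:123062115-123062144, -): aaaccggtctcattgaactcgcctgcagct

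The 10 genes encode 2 translation elongation factors (EEF2 and EEF1A1), 6 ribosomal proteins (RPS24, RPS6, RPS18, RPL7A, RPL37A and RPL13A), the growth-related protein TPT1 and the nucleolar protein NPM1. Over all 15093 windows, 4.68% had such a start. The share was 2.51% among genes listed at 0, 4.72% at 10 to 100 CPM, 7.99% at 100 to 1000 CPM and 41.4% (24 of 58 windows) at 1000 CPM or more. Among ribosomal protein genes that were on it was 65.2% (45 of 69), and among the other genes at 1000 CPM or more 26.3% (10 of 38). Only 1 annotated start per gene was read, so a gene that begins at another base in these cells counts as lacking the motif.

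CpG content moved with level over the whole table. The median observed over expected CpG ratio was 0.284 for genes at 0, 0.417 for genes above 0 and below 0.1 CPM, 0.644 at 0.1 to 1 CPM, 0.782 at 1 to 10 CPM and 0.860 at 10 to 100 CPM, and it stayed at 0.884 and 0.879 in both higher classes. The share of windows with a ratio above 0.6 went from 25.6% at 0 to 93.1% at 1000 CPM or more. TATAAA, searched on both strands, went the other way at first, from 21.0% of windows at 0 to 4.32% at 10 to 100 CPM, and stood at 10.3% at 1000 CPM or more, where that is 6 of 58 windows. The 45 luminal genes with a window, whether on or not, had a median ratio of 0.584, below the 0.772 of all protein-coding windows. TATAAA lay in 20% of their windows against 9.42%. The 83 windows of androgen-induced genes did not share this, with a median ratio of 0.861, 79.5% above 0.6, and TATAAA in 9.64%. Kallikreins, of which 11 of 15 were not on, had a median of 0.221, with none of 13 windows above 0.6, and olfactory receptors 0.120. These are descriptions of letters and levels, and no factor binding was measured here.

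**Figure D2:**
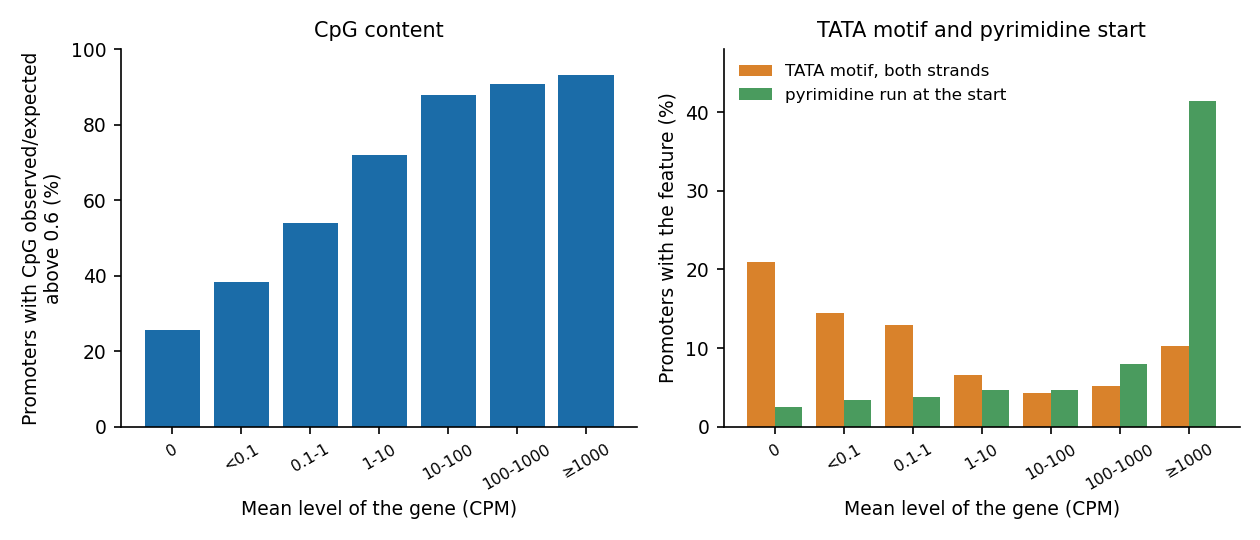
Promoter windows of protein-coding genes grouped by mean level in the DMSO samples, with the share whose CpG observed over expected ratio is above 0.6 (left) and the shares with a TATA motif or a pyrimidine run at the start (right), both axes in percent. The CpG share climbs from 25.6% to 93.1%, and the pyrimidine start is at 41.4% in the highest class.

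The reads were spread over many genes. The 10 genes with the most reads held 7.32% ± 0.179 (SD, n = 3) of all counted reads, the top 100 held 18.8% ± 0.0811, and the top 1000 held 50.7% ± 0.187. The number of genes that together held 50% of the reads was 967 on average, and 960, 964 and 978 in the single samples. Most of the top share belonged to RNR2 and RNR1, the mitochondrial ribosomal RNAs, which together took 5.02% ± 0.156 of the reads. Without them the 10 leading genes held 2.86%. Protein-coding genes took 93.1% ± 0.131 and long non-coding RNAs 1.02% ± 0.022. The 78 genes at 1000 CPM or more held 16.7% of the reads, the 2336 genes at 100 to 1000 CPM held 53.4%, and the 6861 genes at 10 to 100 CPM held 28.3%.

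**Figure D3:**
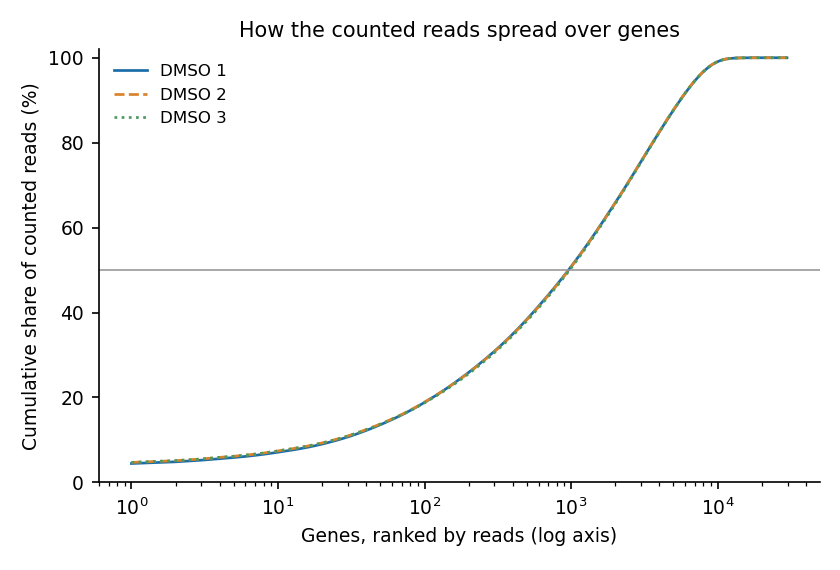
Cumulative share of counted reads in percent against the rank of genes by reads on a log axis, with a line for each DMSO sample and a grey line at 50%. The 3 lines lie on each other and cross 50% at 960, 964 and 978 genes.

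Most of the leading protein-coding genes among those listed served protein synthesis and folding. No mitochondrial mRNA was among the first 30 entries, and the mitochondrial list held only RNR1 and RNR2. This order therefore covers the listed genes only. After EEF2 came EEF1A1, which delivers tRNAs to the ribosome (3506, 3806 and 3806 CPM), and the cytosolic chaperone HSP90AA1 (2590, 2638 and 2581 CPM). KLK3 followed, and then HSPA8, another cytosolic chaperone (2492, 2520 and 2610 CPM), and PABPC1, which binds polyA tails (2280, 2577 and 2692 CPM). EEF1A1 and PABPC1 were lowest in DMSO 1, where KLK3 was highest. The nuclear long non-coding RNA MALAT1 (2481 ± 86.0 CPM), the chaperone HSP90AB1 (2476 ± 25.9) and the glycolytic enzyme GAPDH (2275 ± 49.9) came next. Among the first 30 entries were also 11 ribosomal protein genes, the endoplasmic reticulum chaperone HSP90B1 (1881 ± 38.5 CPM), the mitochondrial chaperone HSPD1 (1819 ± 41.9), the imprinted zinc finger gene PEG3 (1860 ± 58.2) and the membrane peptidase MME (1609 ± 30.7).

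Per kb of transcript the head of the list changed. Of the 20 protein-coding genes with the highest CPM per kb, 18 encoded ribosomal proteins, among them RPS24 (3550 ± 110 CPM per kb) and RPS18 (2929 ± 240). The other two were KLK3 (1772 ± 114) and GAPDH (1770 ± 38.8), whose values overlapped. Of 89 cytosolic ribosomal protein genes 85 were on (95.5%, against 59.7% of all protein-coding genes). The list took 7.02% ± 0.36 of all reads, with a median over those on of 775.5 CPM per kb (244 with the union of exons). Some ribosomal protein genes shared symbols with read-through transcripts in the table, such as RPS10, RPL17 and RPL36A, which stood at 81.9, 4.82 and 5.50 CPM, and reads that fit both cannot be assigned. All 18 housekeeping genes were on, with a median of 206 CPM per kb against 10.6 over all protein-coding genes that were on (120 against 6.5 with the union of exons). The 3 genes used as qRT-PCR references, GAPDH, ACTB (1393 ± 43.1 CPM) and HPRT1 (73.0 ± 4.5 CPM), were on.

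**Figure D4:**
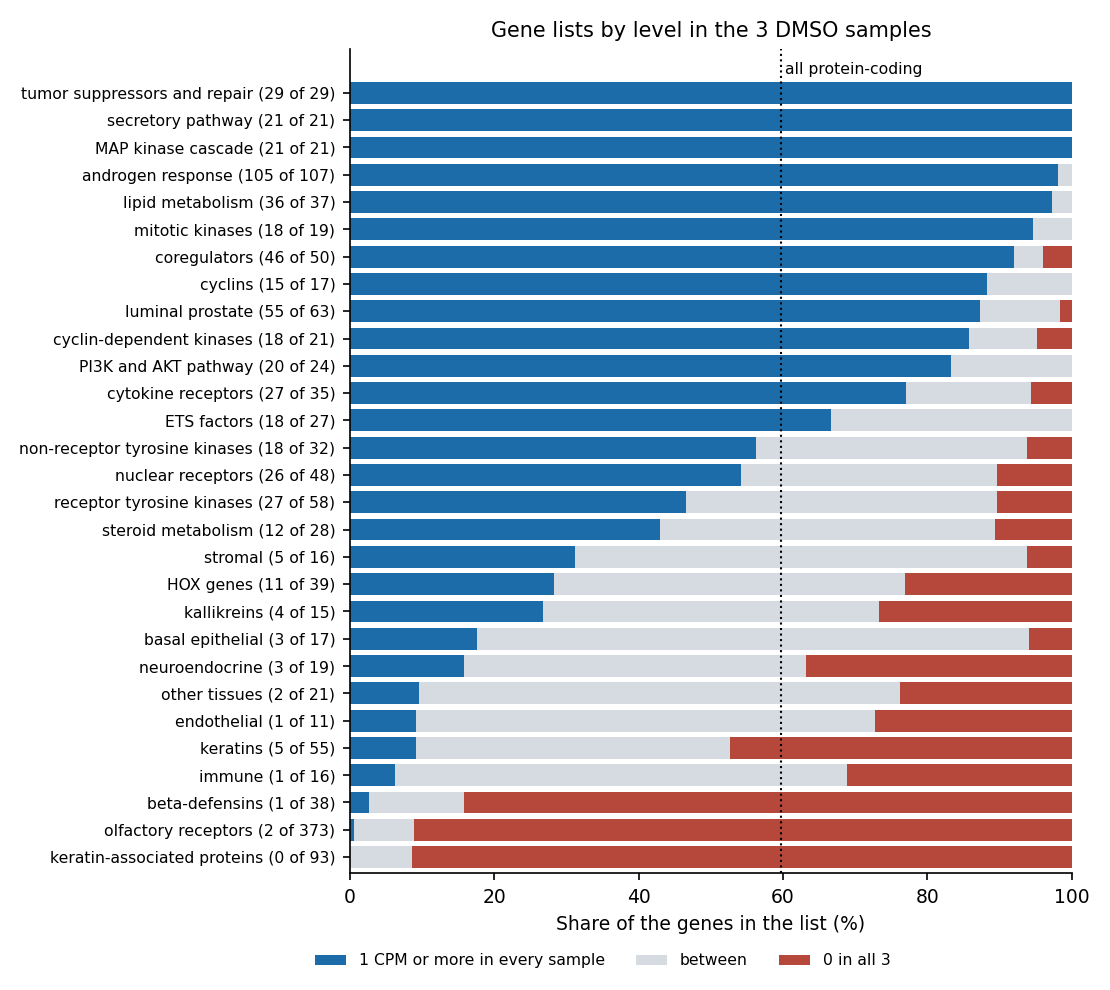
Gene lists as horizontal bars, in percent of the members listed, split into members at 1 CPM or more in every DMSO sample, members between, and members at 0 in all 3. The dotted line marks 59.7%, the share of all protein-coding genes that were on, and the lists run from 29 of 29 tumor suppressor and repair genes to 0 of 93 keratin-associated proteins.

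Of the wider luminal list, 55 of 63 members were on, against 59.7% of all protein-coding genes, and the list took 1.66% ± 0.018 of all reads. The median of the members that were on was 46.3 CPM per kb (29.8 with the union of exons). Neighbours in the order per kb overlapped in 27 of 54 pairs. Among the transcription factors EHF, an epithelial ETS factor, stood at 904, 950 and 952 CPM. Per kb EHF (173 CPM per kb) lay above FOXA1 (118), HOXB13 (115.5), CREB3L4 (85.0) and GATA2 (41.9), a zinc finger factor of prostate enhancers. GATA3, a luminal factor of breast and bladder, was listed at 0 in all 3 samples.

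Surface proteins of luminal cells were all on, 18 of 18, against 59.7% of all protein-coding genes. STEAP2, a metal reductase (1283, 1388 and 1419 CPM), and FOLH1, the prostate-specific membrane antigen (1171, 1175 and 1147 CPM), took the most reads, before TMPRSS2. ABCC4, an exporter of cyclic nucleotides (751 ± 4.3 CPM), and the zinc transporters SLC39A6 (488 ± 16.5) and SLC30A4 (326 ± 9.6) were on as well. Per kb STEAP1 (304 CPM per kb) and FOLH1 (283) lay above TMPRSS2 (222) and STEAP2 (195), without overlap. STEAP2 was lowest in DMSO 1, and FOLH1 and ABCC4 barely moved between samples. The keratins KRT18 (342 ± 19.1 CPM) and KRT8 (205 ± 4.1), the pair that fills luminal cells, and the adhesion protein CDH1 (474 ± 23.7) were on, as were 12 of 13 keratins and junction proteins. KRT7 was the exception at 0.05 CPM, a gene chosen after its value was seen. Of 55 keratin genes in the table, 5 were on (9.09%) and 26 were at 0 (47.3%, against 16.1% of all protein-coding genes).

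Of 14 secreted proteins 10 were on (71.4%, against 59.7% of all protein-coding genes). These included KLK3, SPON2, an extracellular matrix protein (708 ± 47.3 CPM), KLK2, ACPP, prostatic acid phosphatase (204 ± 4.6 CPM), KLK4 (106 ± 2.5) and AZGP1, a zinc-binding glycoprotein (54.7 ± 0.29). TGM4, SEMG1, SEMG2 and NPY were not on. Among them TGM4, the prostate transglutaminase, stood at 0.237 CPM, and the semenogelin genes SEMG1 and SEMG2 at 0.0433 and 0.0267 CPM, close to the worth of 1 or 2 reads. All 4 genes that were off were chosen after their values were seen.

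In the kallikrein cluster on chromosome 19, of 15 kallikrein genes 4 were on (26.7%, against 59.7% of all protein-coding genes). These 4 were KLK3, KLK2, KLK4 (108.5, 104 and 107 CPM) and KLK15 (2.56, 2.26 and 2.80 CPM). Their positions run from 50825289 for the start of KLK15 over KLK3 and KLK2 to 50911395 for the end of KLK4, and none of the other kallikreins of the list lies between. The pseudogene KLKP1 in the same stretch stood at 3.91, 3.47 and 3.69 CPM, and was chosen after its value was seen. KLK5, KLK8, KLK9 and KLK10 were listed at 0 in all 3 samples, and KLK1 stood at 0.0933 CPM. KLK2 and KLK4 overlapped per kb (77.2 ± 7.3 and 75.1 ± 1.7 CPM per kb), and KLK3 lay above both.

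Genes known to be induced by androgen were on almost throughout, 105 of 107, against 59.7% of all protein-coding genes. They took 2.80% ± 0.019 of all reads, with a median of 43.7 CPM per kb (24.8 with the union of exons). Beside KLK3 and TMPRSS2, genes with many reads were ABHD2, a lipid hydrolase (1565, 1533 and 1624 CPM), and ELOVL5, a fatty acid elongase (1178, 1231 and 1218 CPM). The median CV (SD over mean) between samples of the genes on this list was 2.69%, and HSD17B14 and MPPED2 were the 2 members that were not on. The cells grew in serum and were not deprived of androgen by any step in the sources used here. An androgen-free sample was not analysed here, so these values are levels and not responses.

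Genes described as lowered by androgen were on as well, 13 of 14, against 59.7% of all protein-coding genes. PEG3 (1826, 1826 and 1927 CPM), TMEFF2, a membrane protein with follistatin domains (208, 206 and 207 CPM), CAMK2N1, an inhibitor of CaM kinase II (171 ± 2.3 CPM), and DDC, which makes dopamine and serotonin (108 ± 5.5 CPM), took the most reads. UNC13B (98.6 ± 7.6 CPM) and UGT2B17, which glucuronidates androgens (45.6 ± 1.6 CPM), had fewer. NTS was the member not on, at 0.0367 CPM.

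Of the genes of steroid synthesis and reduction 12 of 28 were on (42.9%, against 59.7% of all protein-coding genes). Listed at 0 were 3 (10.7%, against 16.1%). HSD17B4 (394 ± 3.5 CPM), CYB5A (245 ± 13.5), HSD17B12 (114.5 ± 3.4), HSD17B10 (83.7 ± 3.2), SRD5A3 (74.3 ± 0.87) and POR (46.2 ± 1.8) took the most reads, and several of these act in fatty acid, cholesterol or glycan metabolism too. HSD3B2, CYP11B2 and SULT2A1, adrenal enzymes, were listed at 0. CYP17A1, which makes androgen precursors, reached 0.02 CPM in DMSO 1 and 0 in the others. SRD5A1, which converts testosterone to dihydrotestosterone, stood at 32.7 CPM. Both were chosen after their values were seen.

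Coregulators and chaperones of steroid receptors were on in 46 of 50 cases, against 59.7% of all protein-coding genes. The median of those on was 14.3 CPM per kb (8.81 with the union of exons), and the list took 1.33% ± 0.021 of all reads. The chaperones that hold such receptors ready for ligand took the most reads, with HSP90AA1, HSPA8, HSP90AB1, PTGES3 (858 ± 48.1 CPM), FKBP5, an androgen-induced cochaperone (456, 478 and 489 CPM), and FKBP4 (441 ± 6.4 CPM). Of the coactivators, 28 of 30 were on, among them NCOA4 (243, 253 and 252.5 CPM). SMARCA4 (176 ± 20.6 CPM), a chromatin remodeler, NCOA2 (124 ± 5.2 CPM) and MED1 (112 ± 8.4 CPM) had fewer reads. NR0B1 and NR0B2, atypical receptors that repress others, were listed at 0.

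Of 48 nuclear receptors 26 were on (54.2%), near the 59.7% of all protein-coding genes, and 5 were at 0 (10.4%, against 16.1%). The median of those on was 4.37 CPM per kb (2.42 with the union of exons). Among those with the highest levels per kb were NR2F6 (24.0 CPM per kb), NR1D2 (20.5) and ESRRA (17.9), of which NR1D2 and ESRRA overlapped. Of the steroid receptors, NR3C2, the mineralocorticoid receptor, stood at 7.42, 7.91 and 8.72 CPM. The glucocorticoid receptor NR3C1 stood at 0.51, 0.50 and 0.76 CPM and was not on. The estrogen receptors ESR2 (0.26, 0.40 and 0.38 CPM) and ESR1 (0, 0 and 0.04 CPM) and the progesterone receptor PGR (0.18, 0.18 and 0.34 CPM) were not on either. Of the receptors for other ligands, 17 of 22 were on, among them the clock repressor NR1D2 (107 ± 4.2 CPM), the thyroid hormone receptor THRB (91.0 ± 3.9), the retinoid X receptor RXRA (90.7 ± 2.7) and the vitamin D receptor VDR (25.1). Of the orphan receptors 7 of 20 were on, among them NR2F2 (78.9 ± 2.5 CPM), and HNF4A and NR2E1 were listed at 0.

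Receptor tyrosine kinases, which carry growth factor signals into the cell, were on in 27 of 58 cases, against 59.7% of all protein-coding genes. The median of those on was 2.84 CPM per kb, against 10.6 over all protein-coding genes that were on. The ERBB family led, with ERBB3, which signals through its partners, at 224, 236 and 254 CPM and ERBB2 at 123, 120 and 125 CPM. EGFR stood at 31.2, 35.5 and 42.2 CPM, and ERBB4 at 0.14 CPM was not on. Per kb they stood at 42.4, 27.0 and 3.66 CPM per kb without overlap. The insulin-like growth factor receptor IGF1R stood at 117, 120 and 135 CPM and the insulin receptor INSR at 40.4, 41.5 and 41.3 CPM. ERBB3, EGFR and IGF1R were all highest in DMSO 3.

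The collagen receptor DDR1 (95.0 ± 0.91 CPM) led the remaining classes, where 9 of 17 were on (52.9%). EPHB4 (32.0 CPM) led the Eph receptors, of which 8 of 14 were on (57.1%). Both shares were near the 59.7% of all protein-coding genes. FGFR3, FGFR1 and FGFR4 stood at 9.42, 4.02 and 4.00 CPM. None of the 8 receptors of the PDGF and VEGF classes was on, and FLT4 came nearest at 0.87, 1.03 and 1.21 CPM, with values on both sides of 1 CPM. In the MET, AXL and neurotrophin classes TYRO3 (22.9) and MERTK (8.78) were on, MET stood at 0.61, 0.51 and 0.53 CPM, and AXL and NTRK3 were listed at 0. KDR, INSRR, TIE1 and ROS1 were also listed at 0.

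Non-receptor tyrosine kinases were on in 18 of 32 cases (56.2%), near the 59.7% of all protein-coding genes. YES1, a SRC family kinase (165.5 ± 4.8 CPM), took the most reads, before PTK2, the focal adhesion kinase (91.4 ± 1.6), PTK2B (71.2 ± 1.5), ABL1 (61.4 ± 3.0), CSK (52.4 ± 1.6) and JAK2 (45.9 ± 1.8). Per kb YES1 (35.9) lay above CSK (19.1), and PTK2 and PTK2B overlapped. JAK1, which serves most cytokine receptors, stood at 4.53, 4.35 and 5.62 CPM, and was chosen after its value was seen. BLK, a lymphocyte kinase, was listed at 0. Cytokine receptors themselves were on in 27 of 35 cases (77.1%, against 59.7%). Among them were the death receptor TNFRSF10B (184 ± 3.7 CPM), the interferon receptor IFNAR1 (166 ± 5.4) and IL6ST, the shared subunit of the interleukin 6 family (162 ± 2.4). IL2RA and IL7R, lymphocyte receptors, were at 0. Of 13 TGF-beta and BMP receptors 10 were on, among them BMPR2 (176 ± 7.7 CPM) and BMPR1B (106.5 ± 1.6), while TGFBR2 stood at 0.16, 0.22 and 0.32 CPM beside TGFBR1 at 41.4 CPM. TGFBR2 was chosen after its value was seen.

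The MAP kinase cascade was on in 21 of 21 cases, against 59.7% of all protein-coding genes, with MAP2K1 at 136 ± 5.4 CPM (SD, n = 3). In the PI3K and AKT pathway 20 of 24 were on (83.3%). Among them were AKT1 (196 ± 2.6 CPM), the catalytic subunit PIK3CB (157 ± 0.22) and the regulatory subunits PIK3R3 (133.5 ± 1.4) and PIK3R1 (128 ± 3.5). PIK3CA stood at 14.6, 16.3 and 15.6 CPM, and was chosen after its value was seen. Mitotic kinases were on in 18 of 19 cases, among them BUB1B (115.9 ± 5.8 CPM), PBK (104 ± 4.9) and MELK (87.3 ± 3.7), which per kb stood at 31.6, 56.6 and 35.6 CPM per kb.

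Cyclin-dependent kinases were on in 18 of 21 cases (85.7%, against 59.7% of all protein-coding genes). The median of those on was 15.7 CPM per kb (10 with the union of exons). Of the cell cycle kinases CDK1, which drives mitosis, stood at 375, 375 and 353 CPM, CDK4 at 152, 140 and 137 CPM, CDK2 at 86.6, 84.3 and 85.1 CPM and CDK6 at 1.12, 1.16 and 1.36 CPM. Per kb CDK4 (76.6 CPM per kb) and CDK6 (0.104) lay far apart, although both pair with D cyclins. Of the transcription kinases 8 of 8 were on. CDK9, the kinase of P-TEFb and the target of CDKI-73, stood at 46.1, 46.2 and 48.1 CPM, and CDK7, of TFIIH, at 52.8, 54.3 and 51.4 CPM. CDK19 (210 ± 1.2 CPM) and CDK8 (40 ± 1.0) of the Mediator complex, CDK12 (125 ± 10.2) and CDK13 (51.9 ± 4.5) were on as well. Per kb the order was CDK7 (37.1), CDK19 (32.9), CDK9 (18.8), CDK12 (15.1), CDK8 (13.0), CDK11B (12.1), CDK11A (7.37) and CDK13 (5.45). At the canonical lengths only CDK8 and CDK11B overlapped over the samples. CDK11A and CDK11B are near-identical copies, so their reads may be split or lost. CDK3 was listed at 0, and the table also has a read-through entry that contains it, at 0.217 CPM.

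Cyclins were on in 15 of 17 cases (88.2%, against 59.7% of all protein-coding genes). All 7 transcription cyclins were on, among them the CDK9 partners CCNT1 (112 ± 1.6 CPM) and CCNT2 (72.3 ± 2.4), and CCNK (71.4 ± 2.2), which serves CDK12. CCND1 stood at 433, 441 and 440 CPM and CCND3 at 32.3, 31.2 and 33.3 CPM. CCND2 stood at 0.03, 0 and 0 CPM, and with CCNA1 was off. CCNB1 (165.5 ± 7.6 CPM) and CCNA2 (122 ± 6.7), which rise before mitosis, were on.

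ETS factors were on in 18 of 27 cases (66.7%), near the 59.7% of all protein-coding genes. After EHF the most reads went to ETV1 (260, 275 and 268.5 CPM) and ELK4 (241, 230 and 236 CPM). ERG, the partner of TMPRSS2 in the most common prostate cancer fusion, stood at 0.02, 0 and 0 CPM, and was chosen after its value was seen. Of the HOX genes 11 of 39 were on (28.2%), below that share. Per kb HOXB13 (115.5 CPM per kb) lay above the rest of its cluster, in which HOXB9 (3.04 CPM) and HOXB6 (2.88 CPM) were on as well and HOXB1 and HOXB4 were listed at 0. The HOXC cluster had 6 of 9 on, among them HOXC6 (44.2, 51.8 and 52.5 CPM), and the HOXD cluster had 0 of 9, with 7 listed at 0.

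Tumor suppressor and repair genes were on throughout, 29 of 29, against 59.7% of all protein-coding genes. CDKN1A (134 ± 7.1 CPM), NF1 (116.4 ± 7.5) and CDK12 were among those with the most reads. Of the mismatch repair genes 7 of 7 were on. MSH6 stood at 101, 106.5 and 107 CPM, PMS2 at 46.7, MLH3 at 45.1, MSH3 at 38.8 and PMS1 at 35.2 CPM on average.

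The secretory and lipid machinery was on almost without gaps, against 59.7% of all protein-coding genes. Of the chaperones and disulfide enzymes of the endoplasmic reticulum 21 of 21 were on, with 0.953% ± 0.007 of all reads, among them HSP90B1, CALR (1517 ± 22.4 CPM), CANX (1095 ± 23.9) and HSPA5 (1031 ± 26.1). Of the fatty acid and cholesterol genes 36 of 37 were on, with 0.945% ± 0.015 of all reads. SCD, which desaturates fatty acids, stood at 745, 734 and 732 CPM. FASN, fatty acid synthase, stood at 462, 403 and 541.5 CPM, with DMSO 2 lowest and DMSO 3 highest. Only LIPE was not on.

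Proteins that are surface targets of drugs or imaging were on in 16 of 22 cases (72.7%, against 59.7% of all protein-coding genes). STEAP2, FOLH1, TFRC, the transferrin receptor (566.5 ± 13.6 CPM), STEAP1 (371 ± 17.1), CD46, a complement regulator (248 ± 9.8), and ERBB3 took the most reads. GRPR, F3, SSTR2, MSLN, CEACAM5 and VTCN1 were not on, and were named after their values were seen.

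Prostate long non-coding RNAs were on in 8 of 16 cases (50%), against 391 of the 2786 long non-coding RNAs listed (14%). Beside MALAT1, NEAT1, the scaffold of paraspeckles, stood at 891, 955 and 944 CPM, SCHLAP1 at 32.4, 34.6 and 34.7 CPM, PCAT1 at 24.4, 23.8 and 22.9 CPM, PART1 at 12.9, 11 and 10.7 CPM and CTBP1-AS at 10, 11.5 and 12 CPM. PCA3, the RNA of a urine test for prostate cancer, stood at 0.56, 0.35 and 0.38 CPM, and was chosen after its value was seen. PCAT4 and H19 were listed at 0. The libraries were selected for polyA tails, so RNAs without one are not measured evenly.

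Markers of other cell types were mostly off, which is given beside the luminal genes as a check of the label. For comparison, 59.7% of all protein-coding genes were on and 16.1% were at 0. Basal markers were on in 3 of 17 cases, namely ITGA6 (56.7 CPM), DST (22.9) and LAMB3 (1.57), and TP63, the basal master factor, was listed at 0 in all 3 samples. KRT14 stood at 0.51, 0.99 and 1.08 CPM, KRT5 at 0, 0 and 0.02 CPM, and CD44 at 0.10, 0.24 and 0.09 CPM. Neuroendocrine markers were on in 3 of 19 cases, namely ENO2 (8.97), DLL3 (7.02) and SYP (2.6), and NEUROD1, INSM1, SOX2, FOXA2, STMN2 and GRP were listed at 0. CHGA stood at 0, 0 and 0.04 CPM. Stromal markers were on in 5 of 16 cases, among them FN1 (197, 194 and 233 CPM), COL1A1 (9.86) and VIM (4.74), with COL1A2 at 0. Immune markers were on in 1 of 16 (CD68, 5.10 CPM) and endothelial markers in 1 of 11 (VWF, 10.1, 10.0 and 10.1 CPM), with KDR, TIE1 and CLDN5 at 0, and PTPRC, the common leukocyte antigen, at 0, 0.04 and 0.02 CPM. Within this line, fewer cells that carry a marker and less RNA per cell cannot be told apart in bulk samples. KRT5, CD44, CHGA and PTPRC were chosen after their values were seen.

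Genes of distant tissues and gene families gave the silent end, where all protein-coding genes had 59.7% on and 16.1% at 0. Of 21 genes of liver, pancreas, muscle, heart and red cells 2 were on, TTR (1.88 CPM) and GCG (1.54 CPM), and APOB, HP, CPA1 and INS were listed at 0. Olfactory receptors had 2 of 373 on, OR51E1 (2.04, 1.87 and 1.87 CPM), known as a prostate-expressed receptor, and OR5B2 (1.94, 1.89 and 1.83 CPM), and 340 at 0. Keratin-associated proteins of hair had 0 of 93 on and 85 at 0, type I interferons 0 of 17 on and 16 at 0, and taste receptors 1 of 27 on and 12 at 0. Beta-defensins had 1 of 38 on, DEFB132 (17.5, 18.8 and 17.6 CPM), and 32 at 0. The cancer-testis antigens of the MAGE-A family had 6 of 13 on, among them MAGEA3 (90.9, 93.8 and 93.8 CPM) and MAGEA12 (79.4, 74.0 and 69.0 CPM). MAGEA3 and MAGEA6 (57.1 CPM) are near-identical, so their split is uncertain.

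The 3 samples agreed closely for most genes. Over the 12493 genes with a mean of 1 CPM or more the median CV was 4.34%, and 177 of them had a CV above 20%. By level the median CV was 21.4% at 0.1 to 1 CPM, 9.06% at 1 to 5 CPM, 5.30% at 5 to 20 CPM, 3.67% at 20 to 100 CPM, 3.10% at 100 to 1000 CPM and 3.05% at 1000 CPM or more. The expected CV from read counting alone (root of the counting variance over the mean) was 24.3%, 8.87%, 4.02%, 2%, 1.03% and 0.357% in these classes. A median CV of 3 samples lies below such a figure. In simulated samples with counting noise alone it was 0.76 to 0.85 of it, depending on the class. The CV that remains when the mean squared counting CV is taken from the mean squared CV was 11.5%, 7.45%, 5.52%, 4.73%, 4.75% and 4.78%, so the samples differed beyond counting in each class. Of 9275 genes with a mean of 10 CPM or more, none differed 2-fold or more between any pair of samples. The largest absolute log2 difference was 0.51 between DMSO 2 and DMSO 3, 0.63 between DMSO 1 and DMSO 2 and 0.86 between DMSO 1 and DMSO 3. The median absolute log2 difference of these pairs was 0.05, 0.06 and 0.08.

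The genes with the highest and the lowest CVs are named here. Among genes with a mean of 10 CPM or more, the highest CV belonged to the short ribosomal protein genes RPL39 (371.5, 242 and 205 CPM, CV 32.1%) and RPS29 (439, 284.5 and 253 CPM, CV 30.6%). ROMO1, a small mitochondrial protein (64.0, 43.5 and 40.4 CPM), and SNHG9, a small nucleolar RNA host gene (36.0, 26.9 and 22.2 CPM), came next, with CVs of 26.0% and 24.8%. All 4 have transcripts of at most 390 bases and were highest in DMSO 1. KMT2D, a histone methyltransferase with a transcript of 20635 bases, went the other way (49.3, 51.7 and 73.8 CPM, CV 23.2%). The lowest CVs belonged to NOP16 (73.7, 73.6 and 73.7 CPM), TRIQK, HSF2, KHDRBS1 and ZNF384, all at most 0.125%. These lie below the median CV expected from read counting alone, 2% at 20 to 100 CPM and 1.03% at 100 to 1000 CPM. They are the low end of many genes with 3 values each and do not show that these genes are steadier than others.

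A shift between samples with transcript length ran through the 9161 genes with a mean of 10 CPM or more and a matched length. Among 123 genes with transcripts of at most 600 bases and a mean of 10 CPM or more, DMSO 1 lay above the mean of the others by a median of 0.17 on the log2 scale (with 0.1 CPM added), and 82.1% of these genes were highest in DMSO 1, against 36% of all 9161 genes with a length. The median fell with length to 0.11, 0.05, 0.01, -0.02 and -0.05 in the next classes and to -0.08 above 8000 bases, where 11.6% of 859 genes were highest in DMSO 1. DMSO 3 ran from -0.11 to 0.08 over the same classes, and DMSO 2 lay between, from -0.05 to 0.01. The values of the long gene EGFR, highest in DMSO 3, and of the short genes RPL39 and RPS29, highest in DMSO 1, moved with this order. Its part in those values was not tested, and what made the samples differ by transcript length was not tested.

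**Figure D5:**
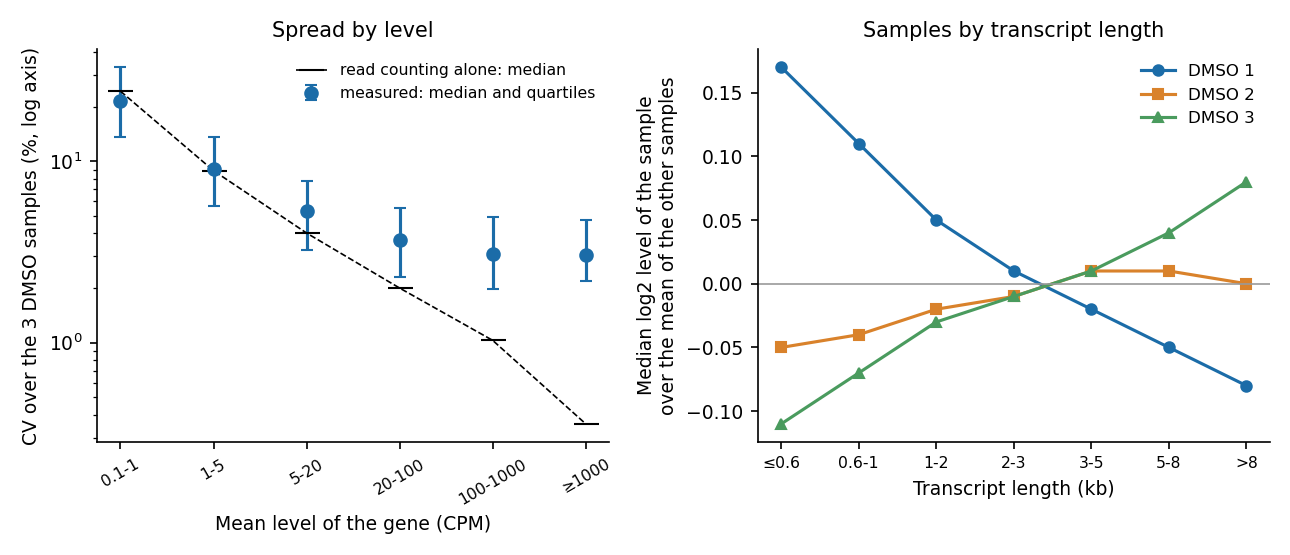
Left, the CV over the 3 DMSO samples in percent on a log axis by mean level, as median and quartiles of genes (points and bars). Dashes give the median expected CV from read counting alone, which lies above the median CV that counting gives in 3 samples. Right, the median log2 level of each sample over the mean of the others by transcript length, where DMSO 1 falls from 0.17 to -0.08 and DMSO 3 climbs from -0.11 to 0.08.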

How the data were processed

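RNA-seq of LNCaP cells was used, 3 DMSO samples of 6. The authors mapped reads to hg38 with STAR version 2.6.1d, counted them per gene with GeneCounts, and deposited CPM with 2 decimals. The submitters' processing notes also name FastQC, edgeR version 3.3 and R version 3.2.3. For the gene annotation and the strand column used in counting, the sources used here give nothing. The CPM carry no TMM factor. No strand setting being stated, reads of overlapping genes cannot be told apart.

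Counted reads were inferred as the smallest total at which 100.0% of values fall on a whole read (61.4%, 55.7% and 53.6% at another total), and the limits given for values of 0 cover counting error only. Symbols were matched to RefSeq (24890 of 29744) for gene type and promoters and to GENCODE version 44 on GRCh38 (23433) for coordinates and canonical transcript length. The SD is over the 3 samples, which the paper calls biological replicates. No test between groups was made. Python 3.11.15, numpy 2.4.6, pandas 2.3.3 and matplotlib 3.10.9 were used. The spread calculation was tested on simulated data.

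Lists were written from general knowledge, so membership may differ from published sets, and members and lists were chosen with earlier results of these data known. Named genes are the 5 markers, the 30 genes with the most reads and the 20 protein-coding genes with the highest CPM per kb, up to 6 members per list or role with the most reads, any member at 0, every member of roles of up to 10, the 5 highest and 5 lowest CVs at a mean of 10 CPM or more, and the 3 reference genes. Others are said to be chosen after their values were seen, which holds for HSD17B14, MPPED2, NTS and LIPE too. Alternatives tried were other thresholds, pseudocounts and scalings, leaving out RNR1 and RNR2 or each sample, protein-coding genes alone, transcripts of 500 bases or more, and the union of exons as length. Some genes that the rule names are not reported here, though list counts and medians include them.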

Additional observations from a re-analysis of the deposited data

How the results depend on the processing

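The number of genes that were on lay between 11518 (2 CPM) and 13136 (0.5 CPM) around 12337, and between 12385 and 12394 with a sample left out. Below 0.1 CPM in every sample lay 13532 genes, against 8908 at 0. Without RNR1 and RNR2 the leading 10 and 100 genes held 2.86% and 14.7% of reads, and among protein-coding genes 2.86% and 14.9%. The median CV was 8.10% with no filter and 2.82% to 4.38% with a sample left out, against 4.34%, and the lowest was without DMSO 1. The median SD of log2 CPM, 0.0623, was 0.107 with no filter and 0.0405 (without DMSO 1) to 0.0626 with a sample left out. Of 220 list counts under alternatives, 216 stayed within 1.5 times. Basal genes on were 5 at 0.5 CPM, and at 2 CPM the counts for other tissues, olfactory receptors and taste receptors were 0 each.

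With the union of exons as length, chosen after seeing the data, the medians were 29.8 (luminal), 24.8 (androgen response), 8.81 (coregulators), 2.42 (nuclear receptors), 2.12 (receptor tyrosine kinases), 10.0 (cyclin-dependent kinases), 244 (ribosomal proteins) and 120 CPM per kb (housekeeping). Without transcripts under 500 bases the ribosomal protein median was 735 CPM per kb. No paired analysis was possible because a single group was described and no test between groups was made. With 3 samples, the SD of any gene is imprecise.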
